A study of Mus musculus with 20 samples.

Results

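The redox and aldehyde detoxification genes described here are 10 genes out of the 24062 gene symbols counted in dermal lymphatic endothelial cells (LECs). They were selected by name, from the rows of the count files: Nfe2l2, Aldh3a1, Aldh1a1, Gstp1, Gstm1, Nqo1, Hmox1, Gclm, Txnrd1 and Srxn1. The selection was made after an earlier analysis of the same counts, in which Aldh3a1 was seen to follow a 24-h curve, so the values of Aldh3a1 are given as a description and carry no test. LECs were sorted as live podoplanin+CD31+ cells from digested ear skin of wild-type C57BL/6 mice (C57BL/6N in the study's methods) at postnatal day 56, at zeitgeber time (ZT, hours after lights on) 1, 7, 13 and 19, with no further treatment. Every time point had 5 replicates, which made 20 libraries. A replicate was a pool of 4 ears taken from 2 mice, so that n counts pools, and full-length cDNA was amplified from the sorted cells. All 10 genes were found in the files, and all 10 passed the filter on low counts.

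Nfe2l2 encodes NRF2, a transcription factor that the adaptor Keap1 keeps low by targeting it for degradation and that accumulates when oxidants or electrophiles modify Keap1. With a small Maf partner, NRF2 binds antioxidant response elements in front of genes for detoxifying enzymes, among them Nqo1, Hmox1, Gclm, Txnrd1, Srxn1 and glutathione S-transferases. Aldh3a1 and Aldh1a1 oxidize aldehydes to acids, and Aldh3a1 is best known as an abundant protein of the corneal epithelium, whereas Aldh1a1 also makes retinoic acid from retinal. Because NRF2 is set mainly at the level of its protein, the abundance of its mRNA is a separate quantity from its activity.

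Because the members share NRF2 as a regulator by background knowledge, their promoters were searched for the core of the antioxidant response element, TGACNNNGC, on both strands. The windows run from 250 bases before to 50 bases after each start site in the RefSeq annotation of GRCm38.p6, and 8 of the 10 genes, with 12 windows, had an entry. Aldh3a1 and Hmox1 had none. The core was found in 4 of the 12 windows, in Nfe2l2 itself, Srxn1, Gclm and Txnrd1, and in 12.4% of all 32851 promoter windows of the same length. The stretches with the match are printed 5′ to 3′ along each gene, with the match in capitals, because these are the 4 of the 12 windows searched that carry it.
Nfe2l2, chr2:75704879-75704913, minus strand: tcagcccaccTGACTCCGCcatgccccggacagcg
Gclm, chr3:122245407-122245447, plus strand: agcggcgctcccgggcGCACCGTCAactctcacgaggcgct
Txnrd1, chr10:82859098-82859138, plus strand: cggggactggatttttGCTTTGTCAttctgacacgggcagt
Srxn1, chr2:152105542-152105571, plus strand: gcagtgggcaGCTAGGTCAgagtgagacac
In Nfe2l2 the core lies as written, 240 bases before the start site, and in the other 3 it lies as its reverse complement, 134 bases before the start site in Gclm, 92 before it in Txnrd1 and 28 bases after it in Srxn1. The clock-factor motifs CACGTG (E-box, in 7.15% of all windows) and TTATGTAA (D-box, in 0.938%) were in none of the 12 member windows. The short core GCGTG, read by the aryl hydrocarbon receptor, was in 8 of the 12 member windows, from 5 genes, and in 32.4% of all windows. A match of letters is a description of these windows and does not show binding.

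Gstp1 needs a second set of sequences, because it has a near-identical neighbour. The coding sequences of Gstp1 and Gstp2 in GENCODE M21 are both 630 bases long and differ at 12 positions (98.1% identity), 6 of which fall within the first 60 bases, shown with the differing bases in capitals.
Gstp1: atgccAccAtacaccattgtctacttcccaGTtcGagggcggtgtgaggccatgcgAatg
Gstp2: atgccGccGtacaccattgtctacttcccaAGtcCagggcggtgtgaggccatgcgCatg
Of all 100-base stretches of Gstp1 transcripts, the length of a read, 25.1% occur unchanged in Gstp2, and such reads cannot be given to either gene. The corresponding share was 5.86% for Gstm1, most often with the pseudogene Gstm2-ps1, 2.44% for Gclm with Ppia, 0.0203% for Aldh1a1 with Aldh1a7 and 0% for the other 6 genes. The coding sequence of Gstm1 is 85.9% identical to that of Gstm2, and that of Aldh1a1 is 91.6% identical to that of Aldh1a7. The counts of Gstp1 and, to a lesser degree, Gstm1 are therefore uncertain in their absolute level.

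Reads counted on genes ranged from 4475111 to 42002363 per library, and the share of reads on genes, out of reads on a gene or on no gene, from 12.7% to 81.6%. This share was between 20.2% and 29.5% at ZT1 and between 35.0% and 81.6% at ZT19, so it moved with the time point. An earlier analysis of these counts had set apart 4 libraries with a high share, ZT7 replicate 2 (62.3%), ZT13 replicates 2 and 5 (39.7% and 79.9%) and ZT19 replicate 1 (81.6%), and some results are also given without them. No fixed limit defines these 4, since ZT19 replicates 2, 3 and 5 (64.0%, 53.7% and 64.9%) were kept though above ZT13 replicate 2. Among the libraries kept, ZT7 replicate 1 (37.7%) was also above the others of ZT7 and ZT19 replicate 4 (35.0%) below the others of ZT19. Of 8 LEC markers, 7, among them Lyve1, Prox1, Pdpn and Flt4, had counts in all 20 libraries, and Ccl21a was listed with 0 counts in each. Keratinocyte transcripts were abundant. The normalized counts of 14 keratinocyte markers summed to between 36356 and 73616 at ZT1, 66193 and 187500 at ZT7, 10362 and 33144 at ZT13 and 95300 and 191976 at ZT19. Of the 14, 6 (Krt5, Krt14, Krt15, Perp, Sfn and Col17a1) differed among the time points, against 0.422% of all genes tested. The sums of 8 fibroblast markers were between 4539.8 and 16189 at ZT1, 821 and 4052 at ZT7, 261 and 8350.1 at ZT13 and 998 and 11149 at ZT19. Keratinocytes lack CD31, by which the cells were gated. In such bulk samples, fewer cells of a type and less RNA per cell cannot be told apart.

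To compare levels between genes, TMM-scaled CPM (counts scaled to a common library total) were divided by the exon length in kb. On this scale Gstm1 was the highest of the 10 genes, with 310 ± 162 (SD, n = 20 libraries), and its lowest library had 135. Aldh3a1 (132 ± 102), Nqo1 (121 ± 43.1) and Gstp1 (102 ± 53.7) followed at levels that overlapped each other, and then Nfe2l2 with 51.5 ± 29.4. The other 5 genes were lower, with Txnrd1 at 10.9 ± 3.66, Hmox1 at 10.8 ± 5.46, Gclm at 9.69 ± 3.23, Srxn1 at 9.18 ± 5.86 and Aldh1a1 at 5.17 ± 3.40. Txnrd1, Hmox1, Gclm and Srxn1 differed from each other in mean level per kb by less than the SD between libraries, and Aldh1a1 had the lowest mean. Among all genes with a length, Gstm1 was at the 99.4th percentile of mean level per kb, Aldh3a1 at the 98.3rd and Aldh1a1 at the 59.3rd.

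**Figure D1:**
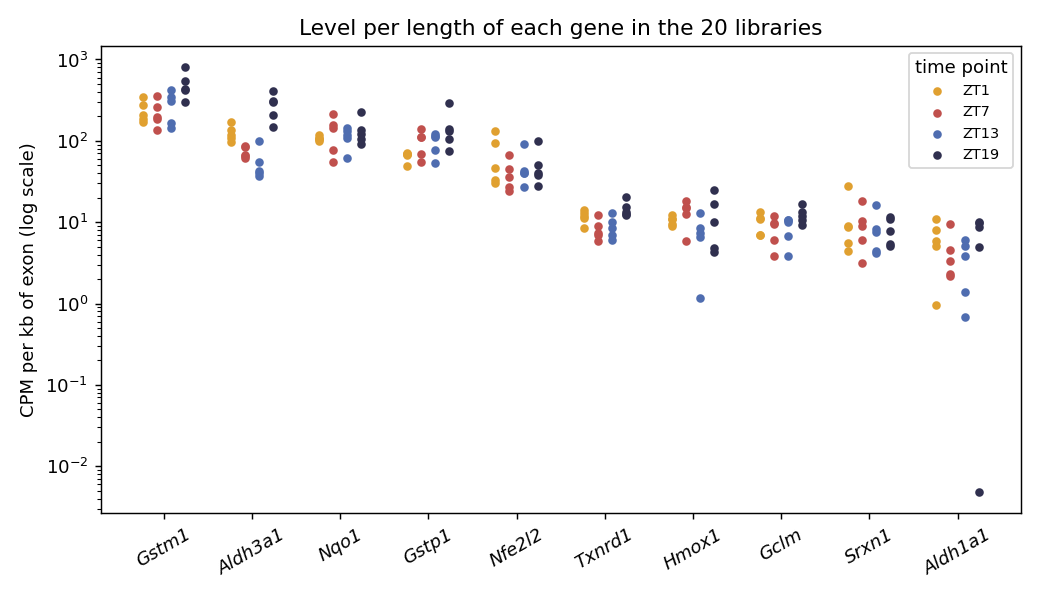
Level of each gene per length, as TMM-scaled CPM per kb of exon on a log scale, 1 point per library and coloured by time point, with genes ordered by their mean over 20 libraries. Gstm1 has the highest mean (310), Txnrd1, Hmox1, Gclm and Srxn1 lie together near 10.9 to 9.18, and 1 ZT19 library of Aldh1a1 stands far below all others.

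To ask whether these genes changed over the day, counts were compared among the 4 time points, within the 6 pairs they form and against a 24-h cosine curve (edgeR's quasi-likelihood test, adjusted by Benjamini-Hochberg over 19209 genes). Among the 4 time points, 1 of the 10 members passed an adjusted p of 0.05, against 0.422% of all genes tested, and for the 24-h curve 1 of 10 passed, against 0.0312% of all genes. In both cases the member was Aldh3a1, on whose 24-h curve the selection rested, so nothing is read from these counts. The pairs gave 0 members for ZT7 against ZT1 (0.00521% of all genes called), ZT13 against ZT1 (0.0208%), ZT19 against ZT1 (0.0156%) and ZT13 against ZT7 (0.0937%). They gave 1 member, again Aldh3a1, for ZT19 against ZT7 (0.0156%) and for ZT19 against ZT13 (0.588%). Of the 9 members other than Aldh3a1, 3 (Gstm1, Gstp1 and Txnrd1) passed the test across time points at 0.05 without adjustment, as did 15.7% of all genes. With DESeq2, 7 member calls were made over the 6 pairs in place of 2, of which 4 were of Aldh3a1 and 3 of Gstp1 or Gstm1 at ZT19. DESeq2 made more calls in general, 5.21% of all tests over the pairs against 0.123% in edgeR.

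Since the curve of Aldh3a1 was known, directions are counted over the other 9 members. ZT19 had the highest mean for 6 of these 9, against 27.0% of all genes tested, and the lowest for 0. Aldh1a1 is among the 6 by mean normalized count. Its mean log2 level was instead lowest at ZT19 (7.05, against 7.10 at ZT13), where ZT19 replicate 1 had almost no reads. Nfe2l2 and Srxn1 were highest at ZT1 and Hmox1 at ZT7. Between ZT19 and ZT13 the log2 difference was above 0 for 9 of 9, against 42.1% of all genes. Its median was 0.63, where the median over all genes was -0.22. Srxn1 at 0.0015 (SE 0.52) and Nfe2l2 at 0.095 (SE 0.44) lay within their SE of 0. Against ZT7 the median was 0.60 for the 9 members and -0.20 for all genes, and against ZT1 it was 0.33 and -0.39. These values depended on the libraries included and on the scaling. Without the 4 libraries set apart, ZT19 had the highest mean for 7 of 9 members, against 30.8% of all genes. In that fit 9 of 9 were above 0 against both ZT13 and ZT7 (44.1% and 42.3% of all genes). The medians were 0.95, 0.83 and 0.59 against ZT13, ZT7 and ZT1, and those of all genes -0.21, -0.28 and -0.22. That removal left shares of reads on genes from 20.1% to 22.9% at ZT13 and from 35.0% to 64.9% at ZT19. Share and time point therefore cannot be told apart between ZT13 and ZT19 in that fit. Without ZT19 replicate 5, ZT19 had the highest mean for 4 of 9 members, against 25.4% of all genes, and the lowest for 1. In that fit 8 of 9 were above 0 against ZT13 (41.3% of all genes). The median against ZT1 was 0.07, and that of all genes -0.43. RLE size factors moved the median ZT19 minus ZT13 difference of all genes from -0.22 to -0.39. With them 5 of 9 were highest at ZT19 (22.1% of all genes) and 7 of 9 above 0 against ZT13 (36.0% of all genes). Nfe2l2 (-0.05) and Srxn1 (-0.17) were on the other side. Upper-quartile scaling gave the same 2 genes below 0. With the log2 odds of gene reads (reads on a gene against reads on no gene) as a covariate, the median of all genes was 0.22 between ZT19 and ZT13 and 0.11 between ZT19 and ZT1, and that of the 9 members 0.47 and -0.09.

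ZT19 replicate 5 was the highest of the 20 libraries for 4 of the 10 members (Aldh3a1, Gstp1, Gstm1 and Nqo1), against 7.42% of all genes tested. It also had the highest score of 5 sebocyte markers (Mgst1, Scd1, Elovl3, Awat2 and Soat1), 2.24 where the other libraries had at most 0.66. The summed normalized counts of these markers were between 15717 and 17221 at ZT1, 7012 and 15699.5 at ZT7, 6063 and 16546 at ZT13 and 15022 and 40696 at ZT19. Their median ZT19 minus ZT13 difference was 0.83 on the log2 scale, with 1 of 5 called (Elovl3) and Awat2 at 0 in 3 libraries, and that of the LEC markers was -0.45, with 0 of 7 called. For the 14 keratinocyte markers the median was 2.16, with 6 called higher at ZT19. Of all genes tested, 0.588% were called in this pair of time points. The part of sebocyte transcripts in these results was not tested.

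**Figure D2:**
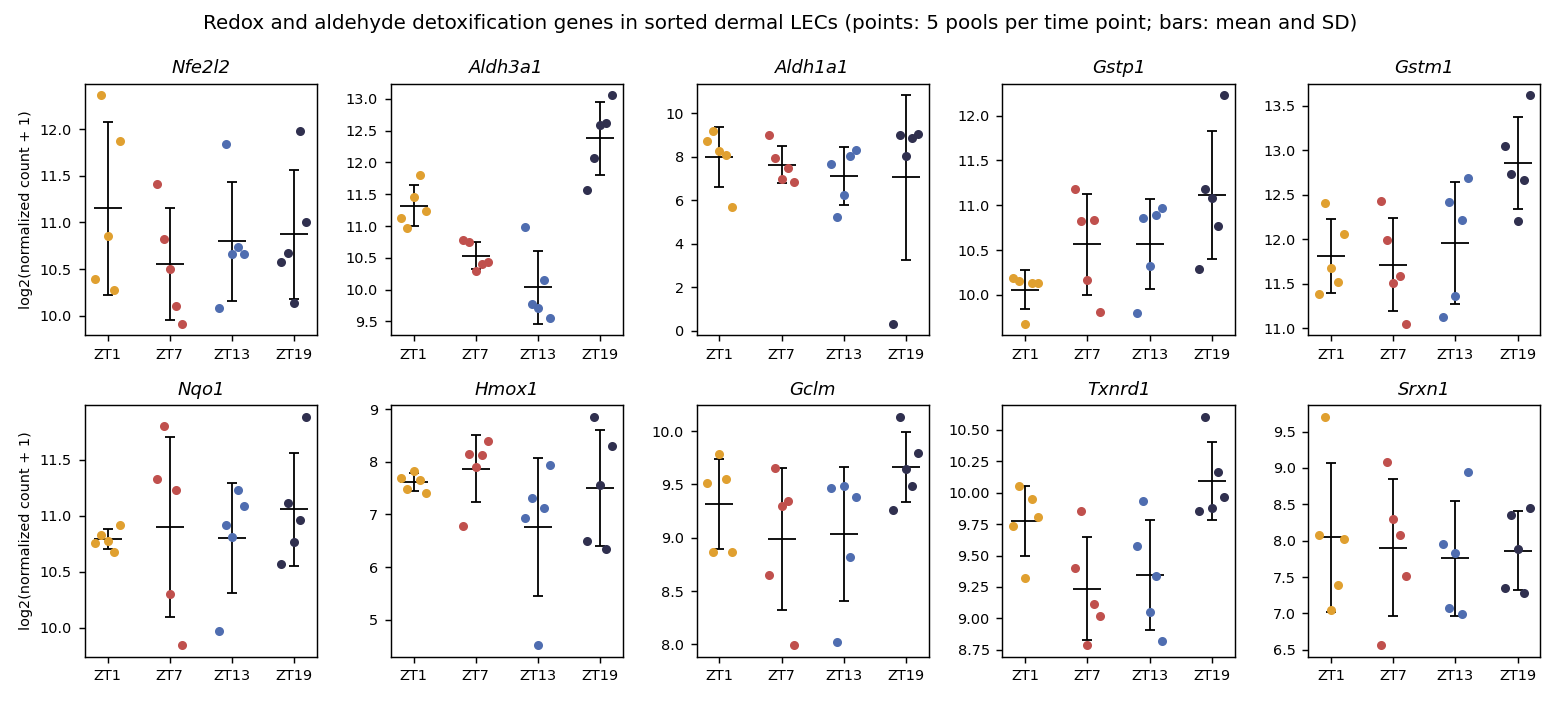
Log2(normalized count + 1) of the 10 genes at ZT1, ZT7, ZT13 and ZT19, with 1 point per pool of mice (n = 5) and bars for the mean and SD. Aldh3a1 at ZT19 lies above all libraries of ZT7 and ZT13, and in most other panels the time points overlap.

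Nfe2l2, on chr2 from 75675513 to 75704641 (GRCm38, minus strand), had no detectable difference between time points. In normalized counts it had 1344, 5286, 1848, 1236 and 3752 in the 5 replicates of ZT1, 2736, 1817, 1447, 1099 and 963 at ZT7, 1085, 3669.9, 1622, 1707 and 1615 at ZT13 and 1523, 1627, 1125, 4038 and 2054 at ZT19. A few libraries of ZT1, ZT13 and ZT19 were high and all groups overlapped. The means ran from 1612 ± 709.8 at ZT7 to 2693 ± 1768 (SD, n = 5) at ZT1, an order in which no neighbours differed beyond their spread (edgeR's quasi-likelihood test across time points, adjusted p = 0.720). Across the 20 libraries, the log2 level of Nfe2l2 followed the LEC marker score with a Pearson's r of 0.64, and of 0.67 within time points, and the fibroblast score with -0.43 and -0.68, and it ran with Gstm1 (r = 0.48) more than with Gclm (r = -0.27). These correlations are descriptions over libraries that share depth and normalization.

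Aldh3a1, on chr11 from 61207537 to 61218421 (plus strand), is described here without a test because its curve chose it. Its normalized counts were 3020.3, 4289, 6135, 6301 and 8529 in the 5 replicates of ZT19 and 2034, 877, 839, 1137 and 754 in those of ZT13. They were 2238, 1999.6, 2810.5, 3558 and 2416 at ZT1 and 1764, 1713, 1259, 1358 and 1380.1 at ZT7. All 5 ZT19 libraries were above all 5 of ZT7 and of ZT13, and all 5 of ZT1 were above all of ZT7, while ZT1 overlapped ZT19 and ZT13. Such a separation was also found for 1.94% of all genes tested between ZT7 and ZT19, for 2.48% between ZT13 and ZT19 and for 1.75% between ZT1 and ZT7.

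From ZT1 to ZT19 the means of Aldh3a1 were 2604 ± 609.6, 1495 ± 228, 1128 ± 526 and 5655 ± 2105 (SD, n = 5). The highest mean was at ZT19, in the night, and the lowest at ZT13, after lights off. ZT13 overlapped ZT7, with a log2 difference between them of -0.41 (SE 0.33). The log2 difference was 2.33 (SE 0.35) between ZT19 and ZT13, 1.92 (SE 0.35) between ZT19 and ZT7 and 1.12 (SE 0.34) between ZT19 and ZT1. The fitted curve had its peak at 21.1 h and an amplitude of 1.13 on the log2 scale, the largest among the 10 members, whose median amplitude was 0.37 against 0.52 for all genes tested. Without the 4 libraries set apart, the amplitude was 1.11. With keratinocyte and fibroblast scores as covariates, the ZT19 minus ZT13 difference was 1.75 (SE 0.54).

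Keratinocyte transcripts moved with Aldh3a1 in part. Over 20 libraries its log2 level followed the keratinocyte score with r = 0.57, and with r = 0.35 within time points. With the single keratins Krt14 and Krt15 it had r = 0.72 and 0.64. Both Aldh3a1 and the keratinocyte score were lowest at ZT13 and highest at ZT19. At ZT7 the summed keratinocyte counts had a median of 90861 against 48465 at ZT1, and all ZT7 libraries of Aldh3a1 were below those of ZT1. None of the 14 keratinocyte markers was at 0 in all libraries. The part of these transcripts in the level of Aldh3a1 was not tested beyond the covariate fit.

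**Figure D3:**
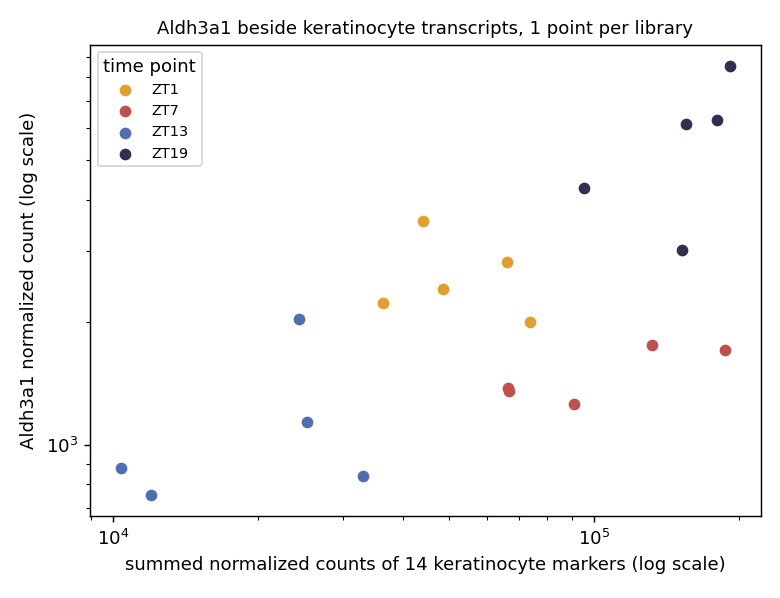
Normalized count of Aldh3a1 against the summed normalized counts of 14 keratinocyte markers, both on log scales, with 1 point per library coloured by time point. The ZT7 libraries have keratinocyte sums from 66193 to 187500 and Aldh3a1 counts from 1259 to 1764, while the ZT1 libraries have sums from 36356 to 73616 and Aldh3a1 counts from 1999.6 to 3558.

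Among the genes whose log2 levels over the 20 libraries were most like those of Aldh3a1 were Krt79 (r = 0.85), Moxd1 (0.83), Cbr3 (0.82) and Frrs1 (0.82). Krt79 is a keratin of hair follicle and sebaceous gland epithelium, and Cbr3 is a carbonyl reductase that stood on the list of NRF2 targets. From ZT1 to ZT19, Cbr3 had 225 ± 64.9, 143 ± 79.6, 113 ± 63.2 and 445 ± 271 normalized counts (SD, n = 5). It did not pass the test among the time points (adjusted p = 0.159, edgeR's quasi-likelihood test).

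Aldh1a1, on chr19 from 20492715 to 20643465 (plus strand), was the lowest member per kb and the most variable, with an SD within time points of 2.16 on the log2 scale, and of 1.10 without ZT19 replicate 1. The libraries had normalized counts of 417, 579, 308, 269 and 50.3 in the replicates of ZT1, 503, 242, 123, 175 and 114 at ZT7, 204, 36.1, 73.4, 264 and 318 at ZT13 and 0.255, 509.6, 263, 462 and 520.4 at ZT19. The library ZT19 replicate 1 had a single raw count among 36022409 reads on genes, whereas the other 4 of ZT19 had at least 263 normalized counts. The groups overlapped, and no difference was detectable among the time points (adjusted p = 0.846, edgeR's quasi-likelihood test). The means from ZT1 to ZT19 were 325 ± 195, 231 ± 159.9, 179 ± 121 and 351 ± 222 (SD, n = 5).

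Of the glutathione S-transferases, which couple glutathione to electrophiles, Gstp1 lies on chr19 from 4035407 to 4037985 (minus strand). Its normalized counts were 1169.6, 1141, 818, 1117 and 1123 at ZT1 and 1252, 2325, 2169.8, 1749 and 4804 at ZT19. They were 2318, 1812, 1145, 1833 and 893 at ZT7 and 886, 1859.9, 1275, 1902 and 2000.0 at ZT13. ZT1 was narrow and low, and all 5 ZT19 libraries were above all 5 of ZT1, as for 8.56% of all genes tested. The means were 1074 ± 144 at ZT1, 1585 ± 483 at ZT13, 1600.0 ± 575 at ZT7 and 2459.8 ± 1375 at ZT19 (SD, n = 5). ZT19 exceeded ZT1 by 1.20 on the log2 scale (SE 0.35), higher in 5 of 5 libraries, but did not pass the threshold (adjusted p = 0.0930, edgeR's quasi-likelihood test). Without the 4 libraries set apart the difference was 1.52 (adjusted p = 0.0313 in the same edgeR test), and without ZT19 replicate 4 it was 1.29 (adjusted p = 0.0461). Without ZT19 replicate 5, the highest library, it was 0.80 (SE 0.33, adjusted p = 0.211). With the log2 odds of gene reads as a covariate it was 0.83 (adjusted p = 0.555). The copy Gstp2 had 101 ± 46.0, 195 ± 56.3, 196 ± 58.4 and 162 ± 86.0 normalized counts from ZT1 to ZT19, and its adjusted p among the time points was 0.598 in the same edgeR fit.

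Gstm1, on chr3 from 108012255 to 108017973 (minus strand), had the highest mean at ZT19, with 7828 ± 2980.0 normalized counts (SD, n = 5). Its values there were 8463, 6808, 4738, 6526 and 12606, against 2680.5, 5432, 3271, 2936 and 4277 at ZT1. They were 5517, 4072, 2918, 3070.2 and 2121 at ZT7 and 2227, 5463, 2624, 4774 and 6597 at ZT13. Every group overlapped ZT19, and the test among the time points was not passed (adjusted p = 0.229, edgeR's quasi-likelihood test). The log2 difference of ZT19 was 1.07 (SE 0.38) against ZT1, 1.15 (SE 0.38) against ZT7 and 0.85 (SE 0.38) against ZT13, with adjusted p-values of 0.110, 0.116 and 0.213 in the same edgeR test. Gstm1 followed the share of reads on genes, with r = 0.78 over 20 libraries and 0.64 within time points on the log2 odds scale. With these odds as a covariate, its difference between ZT19 and ZT1 was 0.45 (adjusted p = 0.793). The share and the time point cannot be told apart between ZT1 and ZT19, whose shares did not overlap.

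Nqo1, on chr8 from 107388225 to 107403206 (minus strand), reduces quinones and is among the most used readouts of NRF2. Its 24-h amplitude was 0.05 on the log2 scale, and 0.18 without ZT7 replicate 2. Its normalized counts were 1729.9, 1813, 1749, 1631 and 1930.0 at ZT1, 2566, 3560.4, 1263, 2394 and 918 at ZT7, 1007, 1935, 1793, 2397 and 2179 at ZT13 and 1515, 2216, 1742, 1998 and 3769 at ZT19. The ZT1 libraries lay close together and within the range of each other time point. Means ran from 1771 ± 110.5 at ZT1 to 2248 ± 890.3 at ZT19 (SD, n = 5), and edgeR's quasi-likelihood test across time points gave an adjusted p of 0.894. For ZT19 minus ZT13 the log2 difference was 0.27 with an approximate 95% interval from -0.41 to 0.96, so a change of moderate size is not shown to be absent.

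Hmox1, on chr8 from 75093621 to 75100589 (plus strand), encodes heme oxygenase, which breaks down heme. It had 206, 178, 226, 201 and 168 normalized counts at ZT1, 109, 282, 237, 279 and 334 at ZT7, 121, 158, 21.8, 139 and 244 at ZT13 and 88.8, 461, 189, 80.0 and 312 at ZT19. The spread was small at ZT1 and wide at ZT13 and ZT19. The means were 196 ± 23.1, 248 ± 85.1, 137 ± 79.8 and 226 ± 162 (SD, n = 5), in the order of the time points, and the adjusted p was 0.753 in edgeR's quasi-likelihood test.

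Gclm, on chr3 from 122245557 to 122270732 (plus strand), is the modifier subunit of the enzyme that limits glutathione synthesis. It had normalized counts of 612, 1123, 802, 716 and 886 at ZT19, against 728, 465, 883, 749 and 467 at ZT1, 402, 803, 628, 651 and 253 at ZT7 and 705, 259.8, 718, 451 and 668 at ZT13. The groups overlapped, with means of 658 ± 185, 547 ± 218, 560.3 ± 199.8 and 828 ± 194 from ZT1 to ZT19 (SD, n = 5). The ZT19 minus ZT7 difference of 0.60 (SE 0.34) on the log2 scale did not pass (adjusted p = 0.337, edgeR's quasi-likelihood test).

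Txnrd1, on chr10 from 82833951 to 82897712 (plus strand), encodes the cytosolic thioredoxin reductase and had the smallest SD within time points of the 10 members, 0.36 on the log2 scale. At ZT19 it had normalized counts of 922, 1554, 939.9, 1144 and 1001, and at ZT7 673, 924, 440.1, 554 and 518. They were 852, 1060.2, 639, 987 and 893 at ZT1 and 764, 974, 529.6, 645 and 451 at ZT13. The ZT19 and ZT7 libraries overlapped only by a narrow margin, with 922 as the lowest of ZT19 and 924 as the highest of ZT7. The means were 886 ± 160.3, 622 ± 189, 673 ± 206 and 1112 ± 262 from ZT1 to ZT19 (SD, n = 5). The ZT19 minus ZT7 difference was 0.84 (SE 0.29) on the log2 scale with an adjusted p of 0.130, and without the 4 libraries set apart it was 1.11 with an adjusted p of 0.0354 (edgeR's quasi-likelihood test in both). The curve of Txnrd1 had its peak at 20.7 h and an amplitude of 0.46 (adjusted p = 0.481, edgeR), and over 20 libraries its level ran with that of Aldh3a1 (r = 0.69, and 0.22 within time points).

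Srxn1, on chr2 from 152105516 to 152111376 (plus strand), encodes sulfiredoxin, which restores over-oxidized peroxiredoxins. It had 269.5, 832, 131, 167 and 259 normalized counts at ZT1, 93.4, 542, 313, 269 and 181 at ZT7, 248, 134, 226, 126 and 491 at ZT13 and 162, 328, 235, 155 and 347 at ZT19. Single high libraries, not time points, set the range, and the test across time points gave an adjusted p of 0.931 (edgeR).

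**Figure D4:**
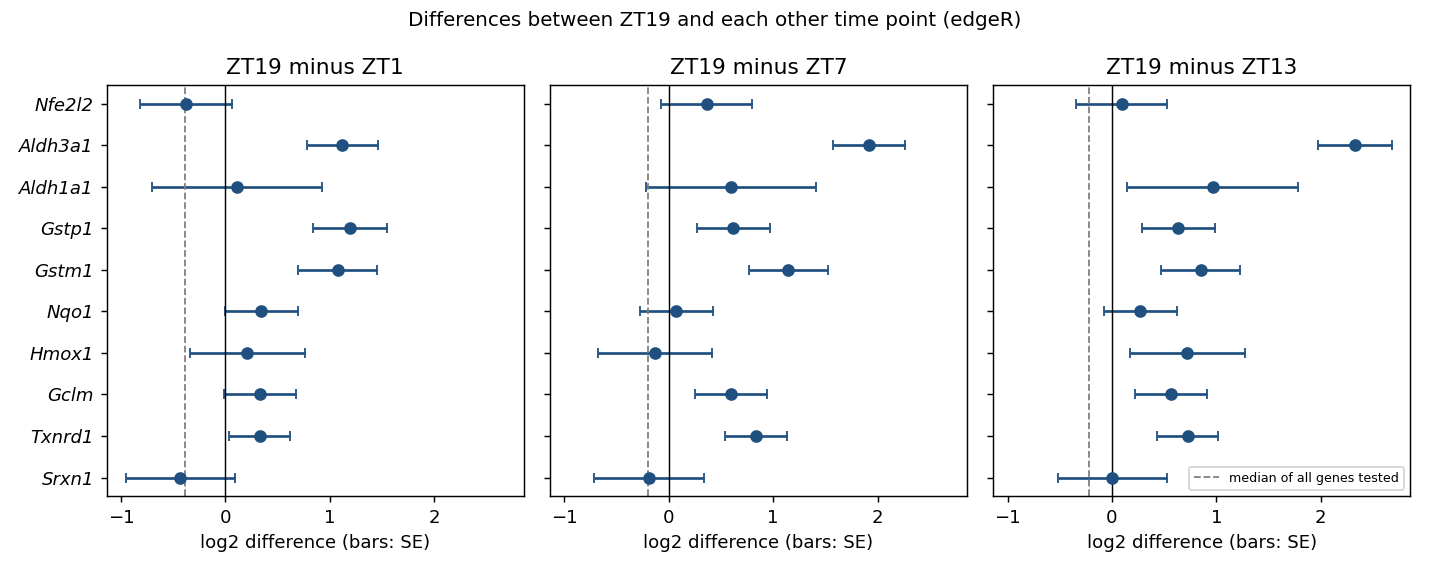
Log2 difference of each gene between ZT19 and ZT1, ZT7 or ZT13 from the edgeR fit, with bars for the SE. The dashed line is the median of all 19209 genes tested, at -0.39, -0.20 and -0.22, and the point for Aldh3a1 against ZT13 lies at 2.33.

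The members did not move as a single block within time points. After the time-point means were removed, Gstp1 and Nqo1 ran together most closely (r = 0.87), followed by Gstm1 with Nqo1 and Gstp1 with Gstm1 (0.69 for both) and Nfe2l2 with Gstm1 (0.65). Aldh3a1 had r = 0.52 with Aldh1a1, 0.10 with Nqo1 and -0.19 with Gstm1, and Nfe2l2 had -0.42 with Gclm. These values describe 20 libraries that share preparation and normalization.

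Further genes of the same pathways were taken from 5 lists. Of 29 other regulators and targets of NRF2, 0 passed the test among the time points (8 had an unadjusted p of 0.05 or less, edgeR) and 0 the 24-h curve, and with DESeq2 13 genes of all 5 lists passed that test. The shares over all 19209 genes were 15.7% at that unadjusted p and 3.12% with DESeq2. For 19 of these 29 genes the mean was highest at ZT19, against 27.0% of all genes. The median ZT19 minus ZT13 difference was 0.48 on the log2 scale, against -0.22 over all genes. These list values are from the full fit with TMM scaling alone, and the lists were chosen with earlier results of these data known. The highest per kb were the ferritin subunits Fth1 (1996 ± 1063) and Ftl1 (916 ± 421) and the thioredoxin gene Txn1 (251 ± 166, SD over 20 libraries). Of 27 genes of superoxide and peroxide clearance and of the thioredoxin and glutaredoxin systems, 0 passed among the time points. Glrx5 alone differed in a pair, ZT19 against ZT13, in which 0.588% of all genes were called. The highest of that list per kb were Gpx1 (446 ± 219), Txnip, an inhibitor of thioredoxin (382 ± 149), and Gpx4 (178 ± 88.0). Of 8 genes of the aryl hydrocarbon receptor pathway, a further known regulator of Aldh3a1, 0 passed any test. The receptor gene Ahr had a level per kb of 12.1 ± 3.34 and its partner Arnt 7.88 ± 2.53.

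Of 19 other glutathione S-transferases tested, 1 passed among the 4 time points, Gstm2, against 0.422% of all genes. From ZT13 to ZT19, 2 rose, Gstm2 and Gsto1, in a pair where 0.588% of all genes were called. The median difference of that list between ZT19 and ZT13 was 1.39 on the log2 scale, against -0.22 over all genes and 2.16 for the keratinocyte markers. ZT19 replicate 5, with the highest sebocyte score, was the highest library for Gstm2 and Gsto1 and for Adh7, Adh1 and Glrx5. These genes were named because they passed a test, with their highest mean at ZT19. A ZT19 library was therefore likely to be their highest, and nothing about sebocytes is read from this. The highest per kb were Mgst1, itself on the sebocyte list (256 ± 207), Mgst3 (76.6 ± 54.0) and Gstm5 (71.6 ± 43.7). Gstm2 had 261, 96.5, 262, 360.3 and 97.8 normalized counts at ZT13 and 1456, 938, 713, 1913 and 1993 at ZT19, without overlap. Groups without overlap in this pair were found for 2.48% of all genes tested. The log2 difference was 2.71 (SE 0.44, adjusted p = 0.00265), and among the time points its adjusted p was 0.0100 (edgeR's quasi-likelihood test for both). With keratinocyte and fibroblast scores as covariates the difference was 1.38 and both calls were lost (adjusted p = 0.174 for the pair and 0.158 among the time points). Gsto1 had 575, 786, 605, 664 and 294 normalized counts at ZT13 and 956, 1234, 1472, 3708 and 4347 at ZT19. The groups did not overlap, and the log2 difference was 2.0 (SE 0.41, adjusted p = 0.0162, edgeR's quasi-likelihood test), falling to 1.05 with those scores (adjusted p = 0.279) and to 1.66 without ZT19 replicate 5 (adjusted p = 0.0698). With the replicate block its adjusted p was 0.0538.

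Of 23 aldehyde and alcohol dehydrogenases and reductases tested, 2 passed among the time points, against 0.422% of all genes. They were Adh7 and Adh1, which oxidize alcohols including retinol. Adh7 had 11369, 8591, 7500.3, 8687 and 15189.6 normalized counts at ZT19, all above the 4826 of the highest other library, which was of ZT1. Groups without overlap with ZT19 were found for 8.56% of all genes for ZT1, 1.94% for ZT7 and 2.48% for ZT13. Its adjusted p was 0.00538 among the time points, and the ZT19 minus ZT13 difference was 2.03 (SE 0.36, adjusted p = 0.00452, edgeR's quasi-likelihood test). With keratinocyte and fibroblast scores as covariates, that difference was 1.44 (adjusted p = 0.140), while its adjusted p among the time points was 0.0485. With the log2 odds of gene reads as a covariate the latter was 0.0696. Adh1 had 961, 1423, 1139.8, 709 and 1774 normalized counts at ZT1, 598, 799, 351, 539 and 482 at ZT7, 743, 526, 1117, 939 and 818 at ZT13 and 1884, 724, 1271, 2626 and 4868 at ZT19. The groups of ZT13 and ZT19 overlapped through ZT19 replicate 2. Adh1 had its lowest mean at ZT7 (554 ± 165) and its highest at ZT19 (2275 ± 1613, SD, n = 5), and its adjusted p of 0.0401 in the test across time points did not hold under most other settings (edgeR). It was 0.0685 with RLE size factors, 0.0758 with upper-quartile scaling, 0.151 with the replicate block, 0.173 with the log2 odds of gene reads, 0.0589 with the marker scores, and between 0.0507 and 0.185 in the 11 of 20 fits without a single library that lost it. Akr1a1, an aldo-keto reductase, had the highest level per kb of the list (147 ± 60.5).

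Glrx5, a mitochondrial glutaredoxin of iron-sulfur cluster assembly, had 611, 726, 837, 1294 and 834 normalized counts at ZT13 and 2364, 1198, 1386, 2992 and 5026 at ZT19. The groups overlapped in 1 library each, and the log2 difference was 1.59 (SE 0.36, adjusted p = 0.0328, edgeR's quasi-likelihood test). Without ZT19 replicate 5 it was 1.21 (adjusted p = 0.149), and it also missed the threshold without ZT13 replicates 1, 2 or 3, with adjusted p-values of 0.0987, 0.0717 and 0.0793. The call was also lost with upper-quartile scaling (1.36, adjusted p = 0.0507), the replicate block (1.55, adjusted p = 0.0908), the log2 odds of gene reads as a covariate (1.49, adjusted p = 0.106) and keratinocyte and fibroblast scores (0.89, adjusted p = 0.358).

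**Figure D5:**
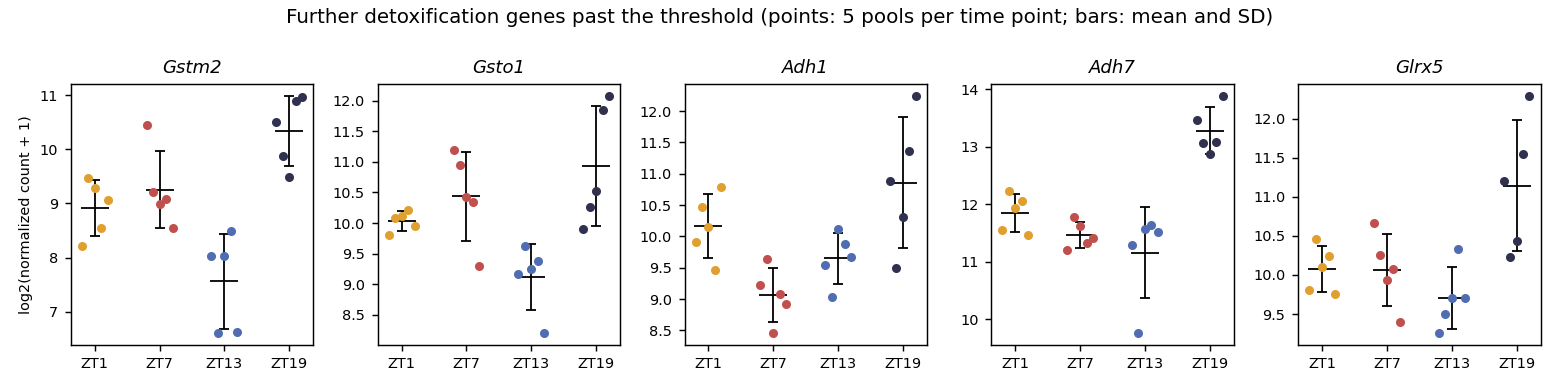
Log2(normalized count + 1) of the 5 further detoxification genes that passed a test, at ZT1, ZT7, ZT13 and ZT19, with 1 point per pool (n = 5) and bars for the mean and SD. All 5 have their highest mean at ZT19, and the lowest lies at ZT13 for all but Adh1, whose lowest mean is at ZT7 (554).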

How the data were processed

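RNA of sorted LECs was measured by SMART-Seq v4 with NexteraXT libraries in 20 samples, grouped by the time point in their titles. The authors mapped 100-nucleotide single-end reads to mm10 with STAR, counted them with HTSeq-count (Galaxy version 1.0.0) and deposited raw counts per gene symbol. The strand setting is not given in the sources used here. Reads had no molecular identifiers, so counting floors cover counting error only.

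The deposited counts went into edgeR 4.0.16 under R 4.3.3 (TMM scaling, low-count filter by group, quasi-likelihood F-test on all 20 libraries, Benjamini-Hochberg over 19209 genes, threshold 0.05). A normalized count is the raw count over the TMM-adjusted library total, set to the geometric mean of those totals. Log2 values used a pseudocount of 1, and exon lengths came from GENCODE M21 (98.5% of symbols matched). The code of the fit was also run on simulated counts with less spread than these data, so that run does not give its error rate here. The members and lists were chosen with earlier results of these data known. Named beside the members are list genes past a threshold, the 3 highest per kb of each list with fewer than 4 such genes, the 5 genes most like Aldh3a1 and close copies of members. Some genes that this rule names are not reported here. Alternatives were DESeq2 1.42.0, RLE and upper-quartile scaling, other filters, a replicate block, the log2 odds of gene reads, marker scores, leaving out 4 libraries, and leaving out each library. The log2 odds compare reads on genes with reads on no gene. A marker score is the mean centred log2 normalized count over its list. Protein sequences were not used here.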

Additional observations from a re-analysis of the deposited data

Results flagged for a closer look

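Over 40 groups of 5 libraries (10 genes at 4 time points), 1 library lay far from the other 4 in 2 groups, and chance alone would give 2. For Aldh1a1 at ZT19, replicate 1 had a normalized count of 0.255 where the others had between 263 and 520.4, and the gap to the nearest library was 0.887 of the whole range on the log2 scale. For Gstp1 at ZT1, replicate 3 had 818 where the others had between 1117 and 1169.6, a gap of 0.872 of the range.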

How the results depend on the processing

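Among the 4 time points 1 member was called under all 9 alternatives and all 20 fits without 1 library. For the 24-h curve, 0 members were called with RLE size factors, upper-quartile scaling, the replicate block, the log2 odds of gene reads, the marker scores or without the 4 libraries, and 0 to 1 without single libraries. The member was Aldh3a1, on whose curve the selection rested, so its calls are counted as a description and lend it no support. Leaving out a single library ended its 24-h call in 13 of 20 fits and its ZT19 minus ZT7 call in 15 of 20. In size, its amplitude was between 0.98 and 1.14 over the 9 alternatives. Its ZT19 minus ZT7 difference was between 1.73 and 2.08 without single libraries. The marker scores ended its ZT19 minus ZT13 call (1.75) and left that of ZT19 minus ZT7. Member calls over the 6 pairs were 2, and 7 with DESeq2, 5 without the 4 libraries, 1 with either scaling, the replicate block, the log2 odds or the marker scores, and 1 to 2 without single libraries. The causes were not tested.

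Genes of the pathway lists called among the time points were 3, and 13 with DESeq2, 10 without the 4 libraries, 1 with the log2 odds, and 2 to 5 without single libraries. Of the 3, Gstm2 and Adh7 were still called with RLE, upper-quartile scaling or the replicate block, Gstm2 alone with the log2 odds and Adh7 alone with the marker scores. For the 24-h curve they were 0, and 3 with DESeq2 and 0 to 1 without single libraries. Over all genes, 81 differed among the time points, and 599 with DESeq2, 52 with upper-quartile scaling, 31 with the replicate block, 49 with the log2 odds, 12 with the marker scores, 375 without the 4 libraries, and 30 to 178 without single libraries. A 24-h curve was called for 6 genes, and for 74 with DESeq2, 0 with the replicate block, 3 with the log2 odds, 2 with the marker scores, 3 without the 4 libraries, and 0 to 10 without single libraries. Calls over the 6 pairs were 142, and 6009 with DESeq2, 71 with the replicate block, 81 with the log2 odds, 58 with the marker scores, 4616 without the 4 libraries, and 80 to 1073 without single libraries (most without ZT19 replicate 4, fewest without ZT13 replicate 4).

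Same-numbered replicates come from different mice. Their deviations had mean correlations from -0.04 to 0.17 over the 6 pairs of time points, so the numbers were not taken as pairs. Under the 9 alternatives the 9 members other than Aldh3a1 did not pass the threshold across time points or for the curve.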
